A study of Mus musculus with 15 samples.

Results

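Mitosis genes are the genes whose products carry a cell from the end of DNA replication through chromosome segregation and cytokinesis. Here 34 such genes were taken from a list of symbols, drawn up with earlier results of these data known. All 34 were found among the 23420 genes counted in each library. The RNA was poly(A)-selected from left liver lobe, pulverized, of males of C57Bl/6J, an inbred mouse strain. Mice ate 1 of 3 diets, with 5 libraries each: BD, a base diet of 4% fat, HFD, a high-fat diet of 31% fat, or MCD, also of 31% fat but deficient in methionine, choline and folate. All 15 libraries came from mice given the vehicle alone, 5% of the emulsifier Alkmauls El-620 in saline, 24 h before sampling, so nothing here bears on tetrachloroethylene, the solvent named in the study's title. The labels give no age and do not tie libraries to single animals, and the p-values therefore measure the spread between these samples. Sample numbers of BD lie in a range of their own, above those of the other diets, so any separate handling of BD cannot be told apart from the diet.

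Most hepatocytes of an adult liver rest outside the cell cycle and re-enter it after loss of tissue or injury, while other liver cells, such as macrophages, can divide as well. Genes of mitosis are transcribed mainly in the G2 phase and mitosis. Their RNA is kept low in resting cells by the DREAM complex, which binds the CHR (cell cycle genes homology region) element in their promoters, and is raised in cycling cells by B-MYB and FOXM1 acting through the same MuvB core, with NF-Y binding to CCAAT boxes nearby. In tissue RNA such as this, more dividing cells and more RNA per dividing cell cannot be told apart.

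The promoters of many mitosis genes held the same short sequence elements. Each RefSeq window covered 250 bases before to 50 bases after a gene's start (GRCm38.p6), and 29 of the 34 genes had one. Foxm1, Ccna2, Aurkb, Kif20a and Tpx2 had no entry. The letters searched on both strands were TTTGAA and TTCGAA for the CHR element (TTCAAA is the reverse of the first, and TTCGAA reads the same on both strands) and CCAAT for the NF-Y box (reverse ATTGG), which can overlap the CHR letters by at most 1 base. A CHR match lay in 23 of the 29 windows (79.3%), against 19.4% of the first windows of 27025 genes, and a CCAAT match in 22 (75.9%), against 37.9%. Both kinds were present in 20 windows (69.0%), against 7.70% of all genes. Birc5, Melk, Nuf2 and Nusap1 had neither. A match is a string of letters, not a measured binding site.

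Stretches of 5 genes are shown, from 250 bases before to 30 bases after the start, because 4 of them hold the recurring arrangements and 1 lacks them. Matches are in capitals and each is written 5′ to 3′ on the gene's strand. Ccnb2 (chr9:70421525-70421804, minus strand) encodes cyclin B2, a partner of CDK1, and has 3 CCAAT boxes spaced 33 bases apart, followed by a CHR match that starts at base 5 of the transcript. Cdc20 (chr4:118437314-118437593, minus strand), an activator of the anaphase-promoting complex, had the largest fold change among the 28 members tested, in MCD against BD and against HFD. Cdk1 (chr10:69352883-69353162, minus strand), the mitotic kinase, carries its CCAAT boxes in the reverse orientation. Prc1 (chr7:80294201-80294480, plus strand), which bundles microtubules of the spindle midzone, has a single box of each kind. Nusap1 (chr2:119618048-119618327, plus strand), a spindle protein, has neither.
Ccnb2: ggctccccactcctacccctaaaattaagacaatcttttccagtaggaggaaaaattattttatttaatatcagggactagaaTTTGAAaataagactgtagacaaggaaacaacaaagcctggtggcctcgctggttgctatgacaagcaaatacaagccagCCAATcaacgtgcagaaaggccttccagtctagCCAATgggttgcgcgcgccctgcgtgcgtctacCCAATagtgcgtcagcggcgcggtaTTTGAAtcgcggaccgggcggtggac
Cdc20: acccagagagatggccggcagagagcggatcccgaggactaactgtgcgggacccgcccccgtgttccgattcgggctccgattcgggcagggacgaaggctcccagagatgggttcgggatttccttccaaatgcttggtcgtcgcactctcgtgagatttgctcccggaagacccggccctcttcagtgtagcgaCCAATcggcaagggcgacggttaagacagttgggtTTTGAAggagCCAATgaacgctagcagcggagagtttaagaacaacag
Cdk1: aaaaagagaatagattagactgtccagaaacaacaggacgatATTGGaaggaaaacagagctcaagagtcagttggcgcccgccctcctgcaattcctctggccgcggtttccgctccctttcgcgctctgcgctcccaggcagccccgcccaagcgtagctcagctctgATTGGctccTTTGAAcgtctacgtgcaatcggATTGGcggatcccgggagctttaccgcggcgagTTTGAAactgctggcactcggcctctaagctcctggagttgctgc
Prc1: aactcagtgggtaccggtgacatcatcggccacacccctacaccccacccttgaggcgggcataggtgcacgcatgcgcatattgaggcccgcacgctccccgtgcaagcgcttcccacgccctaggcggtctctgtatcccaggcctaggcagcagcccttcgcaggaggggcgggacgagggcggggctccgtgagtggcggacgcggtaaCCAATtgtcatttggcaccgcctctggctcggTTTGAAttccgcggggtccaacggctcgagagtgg
Nusap1: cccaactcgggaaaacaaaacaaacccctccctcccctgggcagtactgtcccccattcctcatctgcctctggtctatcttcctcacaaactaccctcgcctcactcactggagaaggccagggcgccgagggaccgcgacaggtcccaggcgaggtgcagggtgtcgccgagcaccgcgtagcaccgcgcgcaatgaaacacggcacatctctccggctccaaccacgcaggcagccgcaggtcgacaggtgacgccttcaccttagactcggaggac

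The matches had positions in common. A CHR match started within the first 50 bases of the transcript in 51.7% of the members' windows, against 2.40% of all windows. A CCAAT match started 100 to 51 bases before the start in 48.3% of the members, against 13% of all, and in the last 50 bases before the start in 48.3%, against 9.44%. In other cell cycle lists, both elements were present in 18.2% of 33 windows of genes for DNA replication and S phase, in 6.25% of 16 windows of anaphase-promoting complex subunits, and in 0 of 11 windows of G1 cyclins and CDK inhibitors. CCAAT boxes alone were common in the S-phase windows as well (66.7%), while CHR matches (21.2%) were near the share of all genes.

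**Figure D1:**
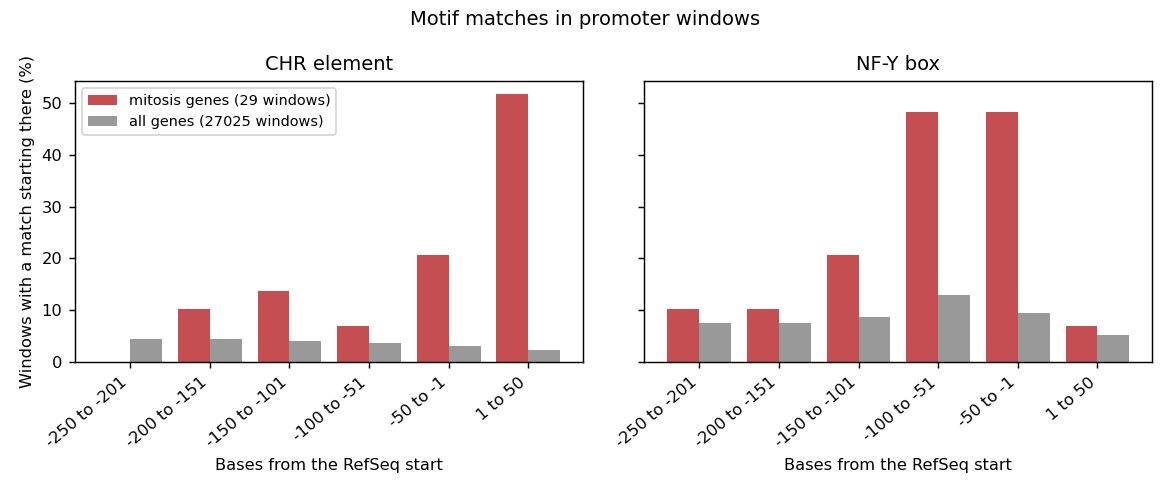
Share of promoter windows (%) with a match starting in each 50-base bin, counted from the RefSeq start, for the CHR element (left) and the NF-Y box (right); red bars are the 29 mitosis gene windows and grey bars the first windows of 27025 genes. Matches of the members gather next to the start, with CHR at 51.7% in bases 1 to 50 and CCAAT at 48.3% in each of the 2 bins before the start.

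RNA levels of these genes were low in all diets, in CPM, which are gene counts scaled by library size and TMM factor. The mean over 5 libraries was under 1 CPM for 24 of 34 genes in BD, 17 in HFD and 5 in MCD. All 34 together took 1738 reads in BD, 2251 in HFD and 8231 in MCD, out of 55695130, 54803430 and 75735936 gene counts. Libraries held 3704642 to 23131089 gene counts, so 3 counts, the limit that a count of 0 allows, stand for 0.118 to 0.851 CPM. A gene had 0 counts in at least 1 library for 12 genes in BD, 6 in HFD and none in MCD. Per kilobase of exon, the highest mean levels in MCD were those of Ccnb2 (2.12 CPM per kb), Cdca3 (2.07), Cdc20 (1.96) and Aurka (1.74). In BD, Aurka (1.29) was first, ahead of Cdca3 (0.623) and Cenpa (0.609).

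**Figure D2:**
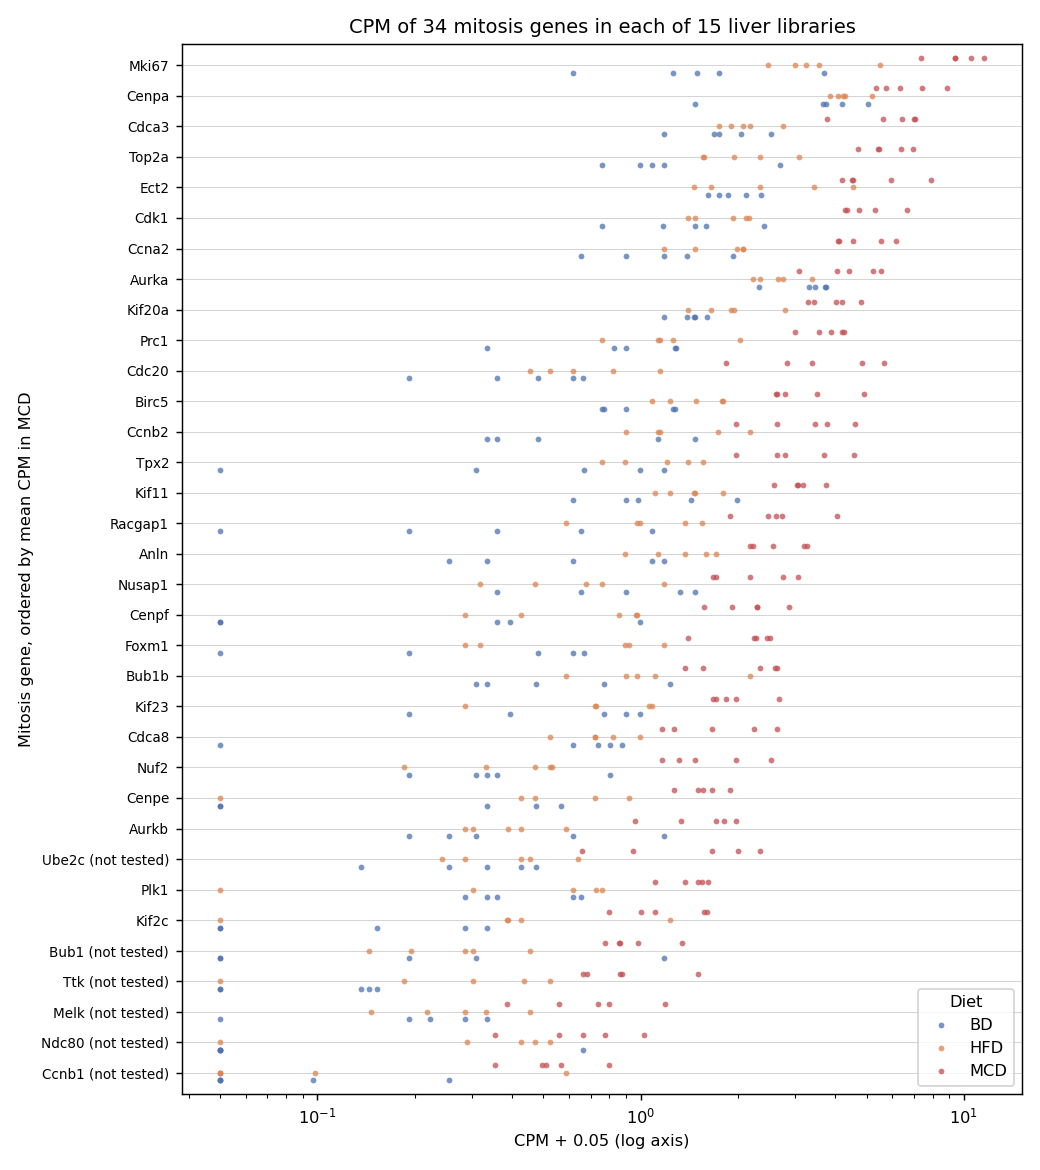
CPM + 0.05 on a log axis for each of the 34 mitosis genes (rows, ordered by mean CPM in MCD); each point is 1 library and colours mark the diets, 5 libraries each. MCD points lie to the right of every BD point for 30 genes and of every HFD point for 26, while BD and HFD points overlap for all 34.

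MCD livers held more RNA of nearly all 34 listed mitosis genes than BD livers. Of 28 genes with enough counts to be tested, 27 rose at an adjusted p under 0.05 (edgeR, Benjamini-Hochberg over 12193 genes), and none fell. Over all genes tested, 12.8% rose and 8.64% fell. The median log2 fold change of the tested members was 1.88, against -0.03 for all genes, with a range from 0.40 (Aurka) to 3.02 (Cdc20). All 5 MCD libraries lay above all 5 BD libraries for 30 of 34 genes and for 26 of the 28 tested, against 9.30% of all genes tested. Aurka, Aurkb, Ndc80 and Bub1 overlapped. The count filter kept many members only with the help of MCD libraries: 14 of the 28 reached its level, 0.970 CPM, in fewer than 5 of the 10 BD and HFD libraries. Of these, 5 reached it in none of them: Plk1, Cdca8, Cenpe, Cenpf and Nuf2. Those 5 had to be higher in MCD to be tested, and the others of the 14 needed some MCD libraries. In a fit with no filter, which covers all 34 genes, 32 rose (9.87% of 17585 genes did), with a median of 1.95. Leaving out any 1 of the 15 libraries ended none of the 27 calls.

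The listed mitosis genes were also mostly higher in MCD than in HFD, the diet of equal fat content. Between these, 22 of the 28 tested members were higher in MCD and none was lower, against 2.22% and 0.927% of all genes. The median log2 fold change was 1.44 (all genes, 0.00), and it ran from 0.64 (Cenpa) to 2.33 (Cdc20). MCD lay above HFD without overlap for 26 of 34 genes and 23 of the 28 tested, against 2.49% of all genes tested. The filter limit applies here too, as 14 of the 28 reached its level in fewer than 5 of the 10 BD and HFD libraries. Aurkb, Nuf2 and Cdc20 were among them. With no filter 23 of 34 rose, against 1.63% of 17585 genes. In that fit Racgap1 passed (adjusted p = 0.0423), while Aurka (0.0523) and Cdca8 (0.0507) did not. With the filter, the 6 of 28 that did not pass were Anln, Bub1b, Cenpa, Cenpe, Kif2c and Racgap1, with adjusted p from 0.0505 (Racgap1) to 0.117 (Cenpa). Of the 22 calls made with the filter, 10 held in each of the 15 fits with 1 library left out and 12 ended in at least 1 of them. The count was 11 without HFD replicate 4, 12 without MCD replicate 1, 13 without HFD replicate 1, 13 without MCD replicate 4 and 14 of 29 tested without HFD replicate 5. The share of all genes that rose was lower in these fits too, at 0.456%, 0.729%, 1%, 0.875% and 0.873% in the same order, against 2.22% with every library. Racgap1 passed without BD replicate 1, 4 or 5 or HFD replicate 2 (adjusted p = 0.0286 to 0.0475), Anln without BD replicate 2 or 5 or HFD replicate 2 (adjusted p = 0.0397 to 0.0416), Cenpa without BD replicate 4 (adjusted p = 0.0481) and Cenpe without BD replicate 3 (adjusted p = 0.0490). The 10 that held were Cdk1, Ccna2, Mki67, Top2a, Cdca3, Aurkb, Nuf2, Cdc20, Prc1 and Kif20a.

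No listed mitosis gene was called between the high-fat and the base diet. In HFD against BD, 0 of 28 members passed (3.65% of all genes rose and 3.27% fell), and 5 had an unadjusted p under 0.05, all higher in HFD: Mki67, Ccnb2, Anln, Kif20a and Racgap1. DESeq2 and limma-voom also called 0, as did the fit with no filter (2.44% of 17585 genes rose in it). No member lacked overlap between the diets, against 3.49% of all genes tested with HFD above BD. The log2 fold change was above 0 for 24 of 28, with a median of 0.48 (all genes, -0.01) and a range from -0.45 (Nusap1) to 1.28 (Kif2c). The 95% intervals were wide, as for Mki67 (0.14 to 1.52), Cdk1 (-0.31 to 0.83) and Cdc20 (-0.29 to 1.67). BD replicate 5 held the highest BD value of 16 genes. Without it 3 of 28 members rose in HFD, against 4.1% of 12279 genes. These were Mki67 (1.50, adjusted p = 0.00305), Top2a (1.16, 0.0200) and Racgap1 (1.70, 0.0433). MCD against BD and HFD against BD share the BD libraries.

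**Figure D3:**
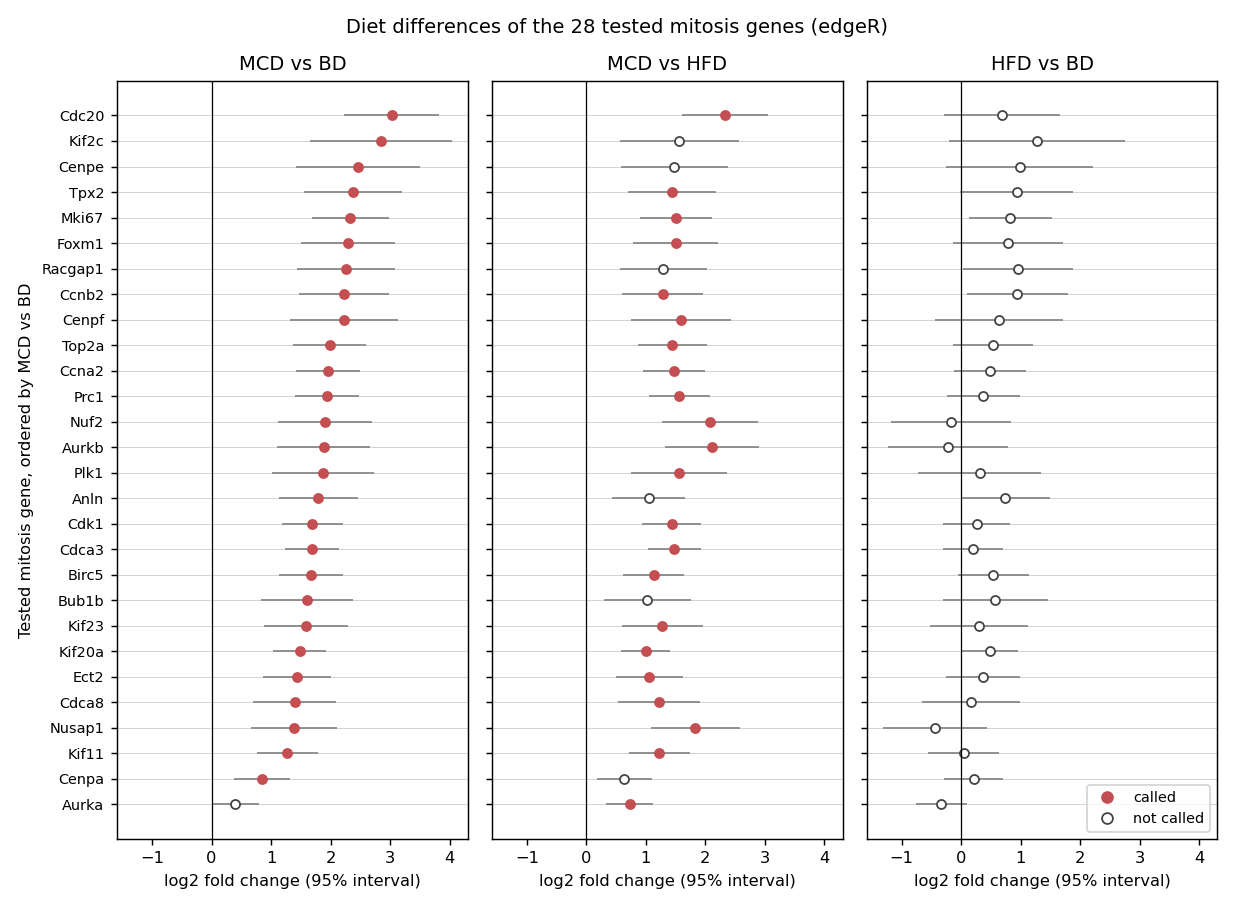
Log2 fold change with 95% interval (edgeR) for the 28 tested mitosis genes in MCD against BD, MCD against HFD and HFD against BD; rows are ordered by the first panel and filled points have an adjusted p under 0.05. There are 27 filled points in the first panel, 22 in the second and 0 in the third, and all points of the first 2 panels lie above 0.

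Values for single genes follow by role, for the 2 genes of each role with the highest mean CPM over all libraries. Values are listed for replicates 1 to 5 of each diet, log2 fold changes are given ± SE, adjusted p-values are from edgeR, and positions are on GRCm38. Foxm1 (chr6:128362967-128376146) encodes the transcription factor that activates many of the other genes. It was at 0, 0.619, 0.431, 0.142 and 0.566 CPM in BD, 0.843, 1.13, 0.237, 0.869 and 0.269 CPM in HFD and 2.20, 1.35, 2.46, 2.41 and 2.23 CPM in MCD. The MCD libraries lay above all others, and replicate 2 was the lowest of them, while BD and HFD overlapped. The log2 fold change was 2.29 ± 0.38 in MCD against BD (adjusted p = 3.26e-04) and 1.50 ± 0.34 in MCD against HFD (adjusted p = 0.0227). The second call ended without HFD replicate 1, 3, 4 or 5 or MCD replicate 1 or 4 (adjusted p = 0.0502 to 0.0638).

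CDK1 bound to cyclins A and B drives entry into mitosis. The 3 tested genes of this role, Cdk1, Ccna2 and Ccnb2, rose in MCD against both other diets. Cdk1 (chr10:69335146-69352938) was at 1.42, 1.55, 1.12, 0.710 and 2.36 CPM in BD, 2.11, 1.89, 1.42, 2.07 and 1.35 CPM in HFD and 4.67, 6.64, 4.30, 4.25 and 5.28 CPM in MCD. Its lowest MCD library stood above the highest BD library, replicate 5, and above all HFD libraries. The log2 fold change was 1.69 ± 0.25 against BD (adjusted p = 1.21e-04) and 1.43 ± 0.24 against HFD (adjusted p = 0.00575). Ccna2 (chr3:36564865-36572150), cyclin A2, which acts in S phase and early mitosis, was at 1.13, 1.34, 0.603, 0.852 and 1.89 CPM in BD, 2.02, 1.13, 1.42, 1.93 and 2.02 CPM in HFD and 5.50, 6.12, 4.02, 4.48 and 4.06 CPM in MCD. Again MCD was above every other library, and HFD reached into the range of BD. Its fold changes were 1.96 ± 0.26 (adjusted p = 5.95e-05) and 1.47 ± 0.25 (adjusted p = 0.00575). Of its exons, 12.5% are shared with Exosc9 on the other strand, so its level is uncertain, as the strand setting of the counting is not given in the sources used here. Ccnb2 ran from 0.284 to 1.42 CPM in BD, 0.849 to 2.13 CPM in HFD and 1.93 to 4.56 CPM in MCD, and HFD replicate 3 exceeded the lowest MCD library. It rose by 2.23 ± 0.36 against BD (adjusted p = 2.91e-04) and by 1.28 ± 0.32 against HFD (adjusted p = 0.0383), and this last call ended without HFD replicate 1, 3, 4 or 5 or MCD replicate 1, 2 or 4 (adjusted p = 0.0505 to 0.101). Ccnb1, cyclin B1, was too low to test, with 3 counts over the 5 BD libraries, 5 in HFD and 43 in MCD. The annotation lists a processed pseudogene, Ccnb1-ps, and reads with more than 1 position entered no gene.

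Mki67 and Top2a act on chromosome structure and are widely used as marks of dividing cells. Mki67 (chr7:135689784-135716361) encodes Ki-67, which coats mitotic chromosomes. It was at 1.70, 1.44, 1.21, 0.568 and 3.63 CPM in BD, 2.95, 3.21, 5.45, 3.52 and 2.43 CPM in HFD and 11.5, 9.33, 10.4, 9.37 and 7.30 CPM in MCD, the highest level in MCD of the 34 genes before scaling to length. All MCD libraries were above all others, and 1 HFD library, replicate 3, was above all BD libraries. It rose by 2.33 ± 0.30 against BD (adjusted p = 5.85e-05) and 1.51 ± 0.29 against HFD (adjusted p = 0.0119). The HFD against BD value was 0.83 ± 0.33 (adjusted p = 0.157, or 0.00305 without BD replicate 5). Top2a (chr11:98992943-99024189), topoisomerase II alpha, untangles sister chromatids. Its values were 1.13, 1.03, 0.948, 0.710 and 2.64 CPM in BD, 1.52, 1.51, 1.89, 3.04 and 2.29 CPM in HFD and 6.91, 5.39, 4.64, 6.32 and 5.38 CPM in MCD. MCD was above every other library, and BD replicate 5 stood far above the remaining BD libraries. It rose by 1.98 ± 0.29 (adjusted p = 1.26e-04) and 1.44 ± 0.28 (adjusted p = 0.0118).

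The kinases of mitosis phosphorylate spindle and chromosome proteins, and this role also holds Cdca3, which is not a kinase. All 3 tested genes of the role, the kinases Aurka and Plk1 and Cdca3, rose in MCD against HFD. Of the 3, Cdca3 and Plk1 also rose against BD. Aurka (chr2:172356190-172370535) encodes Aurora A, the kinase of centrosomes and spindle poles. It was at 2.27, 3.40, 3.27, 3.69 and 3.68 CPM in BD, 2.70, 2.17, 2.60, 3.33 and 2.29 CPM in HFD and 4.01, 5.19, 5.47, 4.37 and 3.04 CPM in MCD. MCD replicate 5 fell within the BD range and below 1 HFD library, and no diet stood clear of another. MCD against BD gave 0.40 ± 0.19 (95% interval 0.01 to 0.79, adjusted p = 0.145), the 1 tested member that did not pass. MCD against HFD gave 0.73 ± 0.19 (adjusted p = 0.0440), and it no longer passed without BD replicate 2 or 3 or HFD replicate 1, 3, 4 or 5 or MCD replicate 1, 2, 3 or 4 (adjusted p = 0.0530 to 0.110). Its promoter window holds 2 CCAAT boxes and a CHR match that starts at base 33. Cdca3 (chr6:124829547-124833701) encodes a protein that helps to destroy the mitotic inhibitor WEE1. It was at 1.13, 2.47, 1.64, 1.99 and 1.70 CPM in BD, 1.85, 1.70, 2.13, 2.70 and 2.02 CPM in HFD and 6.99, 6.95, 6.37, 3.73 and 5.58 CPM in MCD. MCD replicate 4 was the lowest MCD library and still exceeded all BD and HFD libraries. The fold changes were 1.69 ± 0.22 (adjusted p = 4.94e-05) and 1.48 ± 0.21 (adjusted p = 0.00276). Plk1, the Polo-like kinase of mitotic entry and exit, reached the filter level in no BD or HFD library. It ran from 0.236 to 0.603 CPM in BD, 0 to 0.710 CPM in HFD and 1.06 to 1.56 CPM in MCD. It rose by 1.87 ± 0.41 (adjusted p = 0.00287) and 1.56 ± 0.39 (adjusted p = 0.0359), and the second call ended without HFD replicate 1, 3, 4 or 5 or MCD replicate 1, 2, 4 or 5 (adjusted p = 0.0518 to 0.0873). Melk, a kinase of dividing cells, was not tested, with 9, 11 and 53 counts in BD, HFD and MCD.

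The chromosomal passenger complex corrects faulty attachments of chromosomes and later acts at the midzone, and its 3 members here rose in both comparisons of MCD. Birc5 (chr11:117849251-117855743), survivin, was at 0.851, 0.722, 1.21, 0.710 and 1.23 CPM in BD, 1.43, 1.04, 1.18, 1.74 and 1.75 CPM in HFD and 3.46, 4.87, 2.57, 2.59 and 2.74 CPM in MCD. All MCD libraries were above all others, replicate 2 by the most. It rose by 1.67 ± 0.26 against BD (adjusted p = 1.81e-04) and 1.13 ± 0.24 against HFD (adjusted p = 0.0179). The latter ended without MCD replicate 1 (adjusted p = 0.0514). Cdca8 (chr4:124918465-124939311) encodes borealin, which links survivin to the complex. It reached the filter level in no BD or HFD library. Its values were 0, 0.825, 0.689, 0.568 and 0.754 CPM in BD, 0.674, 0.943, 0.474, 0.772 and 0.674 CPM in HFD and 2.20, 2.59, 1.12, 1.61 and 1.22 CPM in MCD. The lowest MCD library, replicate 3, was the closest to the other diets, of which HFD replicate 2 was the highest. Fold changes were 1.39 ± 0.34 (adjusted p = 0.00568) and 1.23 ± 0.33 (adjusted p = 0.0470), the last lost without BD replicate 2, 3 or 4 or HFD replicate 1, 3, 4 or 5 or MCD replicate 1, 2, 4 or 5 (adjusted p = 0.0530 to 0.142). Aurkb, Aurora B, the kinase of the complex, ran from 0.142 to 1.13 CPM in BD, 0.237 to 0.539 CPM in HFD and 0.913 to 1.92 CPM in MCD. It rose by 1.89 ± 0.37 (adjusted p = 0.00132) and 2.11 ± 0.38 (adjusted p = 0.00828), with an overlap only through BD replicate 1, the shallowest library.

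Kinetochore genes build the platform on which spindle fibres pull. All 4 tested genes, Cenpa, Cenpe, Cenpf and Nuf2, rose in MCD against BD, and Cenpf and Nuf2 also against HFD. Over all genes tested, 12.8% rose in MCD against BD and 2.22% in MCD against HFD. Cenpe, Cenpf and Nuf2 reached the filter level in no BD or HFD library, so they were tested only through MCD. With no filter their adjusted p in MCD against BD was 9.92e-04, 5.71e-04 and 9.83e-04. Cenpa (chr5:30666777-30674830) encodes the histone H3 variant that marks centromeres. It was at 3.69, 3.61, 4.14, 1.42 and 5.00 CPM in BD, 5.14, 4.24, 4.03, 3.81 and 4.18 CPM in HFD and 7.38, 8.82, 6.31, 5.29 and 5.68 CPM in MCD. The MCD libraries were above all others, with a narrow gap between HFD replicate 1 and MCD replicate 4. The rise was 0.85 ± 0.23 against BD (adjusted p = 0.0108), and against HFD the value was 0.64 ± 0.22 (adjusted p = 0.117). Cenpf (chr1:189640606-189688086), a large protein of the outer kinetochore, was at 0, 0.309, 0.345, 0 and 0.943 CPM in BD, 0.927, 0.377, 0.237, 0.917 and 0.808 CPM in HFD and 2.83, 1.87, 2.23, 2.24 and 1.52 CPM in MCD. BD replicates 1 and 4 had no reads, and the MCD libraries lay above all others. It rose by 2.23 ± 0.43 (adjusted p = 0.00121) and 1.59 ± 0.40 (adjusted p = 0.0383), the latter lost without HFD replicate 1, 3, 4 or 5 or MCD replicate 1 or 4 (adjusted p = 0.0628 to 0.111). Cenpe, a kinetochore motor, ran from 0 to 0.516 CPM in BD, 0 to 0.869 CPM in HFD and 1.22 to 1.85 CPM in MCD, and rose by 2.46 ± 0.50 against BD (adjusted p = 0.00156). Nuf2, a subunit of the NDC80 complex, ran from 0.142 to 0.754, 0.135 to 0.482 and 1.12 to 2.49 CPM in the same order. It rose by 1.91 ± 0.38 (adjusted p = 0.00131) and 2.08 ± 0.38 (adjusted p = 0.00918). Its partner Ndc80 was not tested, with 13 counts in BD, all in replicate 5, 16 in HFD and 51 in MCD.

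The spindle checkpoint holds anaphase back until every chromosome is attached. Bub1b (chr2:118598211-118641591) encodes BUBR1, part of the complex that inhibits CDC20. It was at 0.284, 0.722, 0.258, 0.426 and 1.18 CPM in BD, 0.927, 0.849, 2.13, 1.06 and 0.539 CPM in HFD and 2.55, 2.28, 1.51, 2.59 and 1.32 CPM in MCD. MCD was above all BD libraries, and HFD replicate 3 exceeded MCD replicates 3 and 5. It rose by 1.60 ± 0.37 against BD (adjusted p = 0.00431), with 1.02 ± 0.35 against HFD (adjusted p = 0.111). Bub1 (chr2:127801122-127831865), the kinase that recruits checkpoint proteins, was at 1.13, 0, 0.258, 0 and 0.141 CPM in BD, 0.253, 0.0943, 0.237, 0.145 and 0.404 CPM in HFD and 1.30, 0.933, 0.726, 0.804 and 0.812 CPM in MCD. Every BD and HFD library was below all MCD libraries except BD replicate 1, whose value rests on 4 counts. Bub1 held 10, 11 and 77 counts in BD, HFD and MCD and was not tested, like Ttk, the MPS1 kinase, with 4, 14 and 65. In the fit with no filter their adjusted p in MCD against BD was 0.00764 and 4.11e-04.

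The anaphase-promoting complex is the ubiquitin ligase that starts anaphase, and for both of its partners in the list all MCD libraries lay above all others. Cdc20 (chr4:118432901-118437352), its activator, was at 0.567, 0.309, 0.431, 0.142 and 0.613 CPM in BD, 1.10, 0.566, 0.474, 0.772 and 0.404 CPM in HFD and 4.79, 5.60, 2.79, 1.78 and 3.35 CPM in MCD. MCD libraries spread widely, from replicate 4 to replicate 2, and replicate 4 was the closest to the other diets. The rise of 3.02 ± 0.38 against BD (adjusted p = 3.62e-05) and of 2.33 ± 0.35 against HFD (adjusted p = 0.00314) was the largest among tested members in each comparison. Ube2c (chr2:164769898-164778822), its ubiquitin-conjugating enzyme, was at 0.284, 0.206, 0.0862, 0.426 and 0.377 CPM in BD, 0.590, 0.377, 0.237, 0.193 and 0.404 CPM in HFD and 1.61, 2.28, 0.894, 1.95 and 0.609 CPM in MCD. Its MCD replicate 5 stood just above HFD replicate 1, the highest of the other libraries. It held 15, 19 and 119 counts and was not tested, and with no filter the adjusted p was 6.15e-04 against BD and 0.0128 against HFD. Tnnc2, on the other strand, shares 22.8% of its exon length, so its level is uncertain as well. With no filter Ccnb1 (adjusted p = 0.00966) and Melk (0.0109) also passed in MCD against BD, and Ndc80 (0.133) did not.

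Spindle motors and microtubule proteins shape the bipolar spindle, and the 4 genes of this role all rose in MCD against BD. Kif11 (chr19:37376403-37421859), the motor that pushes spindle poles apart, was at 0.567, 0.928, 1.38, 0.852 and 1.93 CPM in BD, 1.18, 1.41, 1.42, 1.06 and 1.75 CPM in HFD and 3.69, 3.01, 3.13, 2.99 and 2.54 CPM in MCD. MCD was above all others, and the highest BD library, replicate 5, exceeded all HFD libraries. It rose by 1.27 ± 0.24 (adjusted p = 0.00113) and 1.23 ± 0.25 against HFD (adjusted p = 0.0141), the latter lost without HFD replicate 4 (adjusted p = 0.0586). Tpx2 (chr2:152847964-152895321), which activates Aurora A on the spindle, was at 1.13, 0.619, 0.258, 0 and 0.943 CPM in BD, 0.843, 1.51, 0.710, 1.16 and 1.35 CPM in HFD and 4.52, 3.63, 2.74, 2.59 and 1.93 CPM in MCD. The MCD libraries were again above the rest, and BD replicate 4 had no reads. Fold changes were 2.38 ± 0.40 (adjusted p = 3.54e-04) and 1.44 ± 0.35 (adjusted p = 0.0350), and the second ended without HFD replicate 1, 3, 4 or 5 or MCD replicate 1, 2 or 4 (adjusted p = 0.0534 to 0.114). Kif2c, which takes apart faulty microtubule ends, ran from 0 to 0.284 CPM in BD, 0 to 1.18 CPM in HFD and 0.747 to 1.56 CPM in MCD, and rose by 2.84 ± 0.57 against BD (adjusted p = 0.00152). Nusap1, which stabilizes spindle microtubules, ran from 0.309 to 1.42, 0.269 to 1.13 and 1.62 to 3.02 CPM. It rose by 1.38 ± 0.34 (adjusted p = 0.00694) and 1.83 ± 0.36 (adjusted p = 0.0129), and the second call ended without HFD replicate 4 (adjusted p = 0.0515).

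The 6 genes of the midzone and cytokinesis all rose in MCD against BD, and 4 of them also against HFD. Ect2 (chr3:27097222-27153878) activates RhoA at the site of the cleavage furrow. It was at 1.70, 2.06, 1.81, 1.56 and 2.31 CPM in BD, 1.60, 1.41, 4.50, 3.38 and 2.29 CPM in HFD and 4.48, 7.88, 4.47, 4.14 and 5.88 CPM in MCD. MCD was above all BD libraries, and HFD replicate 3 lay above 3 of the MCD libraries. It rose by 1.43 ± 0.27 against BD (adjusted p = 0.00108) and 1.06 ± 0.27 against HFD (adjusted p = 0.0371), the latter lost without HFD replicate 1, 4 or 5 or MCD replicate 1, 2, 4 or 5 (adjusted p = 0.0523 to 0.0915). Kif20a, the motor that carries the passenger complex to the midzone, was at 1.13, 1.34, 1.55, 1.42 and 1.41 CPM in BD, 1.85, 1.60, 1.89, 2.75 and 1.35 CPM in HFD and 4.75, 4.15, 3.97, 3.39 and 3.25 CPM in MCD. All MCD libraries stood above all BD and HFD libraries. Fold changes were 1.48 ± 0.21 (adjusted p = 9.76e-05) and 0.997 ± 0.20 (adjusted p = 0.0135). Its exons share 29.3% of their length with Cdc23 on the other strand, so its level is uncertain for the same reason as that of Ccna2. Prc1 ran from 0.284 to 1.24 CPM in BD, 0.710 to 1.98 CPM in HFD and 2.94 to 4.20 CPM in MCD, with 11.1% of its exons shared with Rccd1 on the other strand, so its level is uncertain too. It rose by 1.93 ± 0.26 (adjusted p = 5.95e-05) and 1.56 ± 0.25 (adjusted p = 0.00437).

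Kif23 and Racgap1 encode the centralspindlin complex, which binds Ect2 at the midzone. Kif23 ran from 0.142 to 0.943 CPM in BD, 0.237 to 1.04 in HFD and 1.62 to 2.64 in MCD. It rose by 1.58 ± 0.34 (adjusted p = 0.00241) and 1.28 ± 0.33 (adjusted p = 0.0385), the second lost without HFD replicate 1, 3, 4 or 5 or MCD replicate 1, 4 or 5 (adjusted p = 0.0600 to 0.133). Racgap1 ran from 0 to 1.04, 0.539 to 1.50 and 1.84 to 4.01 CPM and rose by 2.26 ± 0.39 against BD (adjusted p = 4.80e-04). Against HFD its value was 1.30 ± 0.35 (adjusted p = 0.0505). Anln, anillin, a scaffold of the contractile ring, ran from 0.206 to 1.13, 0.843 to 1.66 and 2.13 to 3.22 CPM. It rose by 1.79 ± 0.32 against BD (adjusted p = 5.72e-04), and against HFD the value was 1.05 ± 0.29 (adjusted p = 0.0575).

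Summed over the 34 genes, the level was 27.0, 28.4, 26.8, 20.03 and 43.2 CPM in BD replicates 1 to 5, 38.4, 37.4, 42.9, 45.9 and 35.7 CPM in HFD and 116, 119, 94.97, 91.0 and 85.7 CPM in MCD. The means were 29.1 ± 8.53, 40.1 ± 4.21 and 101 ± 15.2 CPM (SD, n = 5). MCD lay well above both other diets, and BD replicate 5 alone reached into the HFD range. Within MCD, replicates 1 and 2 held the highest value of 14 genes each, while replicates 3, 4 and 5 held that of 3, 2 and 1. Within HFD, no replicate led for more than 9 genes.

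Markers of other cell types moved with diet as well. Over all genes tested, 12.8% rose in MCD against BD and 2.22% in MCD against HFD. All 10 tested markers of recruited macrophages rose in MCD against BD and 3 of 10 in MCD against HFD, and their summed level was 32.7 to 38.2 CPM in BD, 45.6 to 112 in HFD and 78.7 to 158 in MCD. Of the 11 markers, Gpnmb and Ly6c2 had libraries at 0, all in BD. Cd9, the most abundant of them, rose by 0.41 ± 0.13 (adjusted p = 0.0318). Kupffer cell markers, such as Cd5l (0.95 ± 0.15, adjusted p = 2.00e-04), rose for 5 of 6 in MCD against BD and for 0 of 6 against HFD, with sums of 176 to 327, 268 to 375 and 306 to 478 CPM. Stellate cell and fibroblast markers, such as Dcn (0.73 ± 0.11, adjusted p = 2.29e-04), rose for 8 of 9 and for 4 of 9, with sums of 304 to 402, 389 to 527 and 537 to 883 CPM. Ptprc, which marks all leukocytes, rose by 1.28 ± 0.20 (adjusted p = 2.26e-04). Their part in the rise of the mitosis genes was not tested.

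The order of libraries differed between some of these lists. HFD replicate 2 had a macrophage sum of 111.9 CPM, within the MCD range and above the 45.6 to 59.9 CPM of the other HFD libraries. Its mitosis sum of 37.4 CPM lay within the 35.7 to 45.9 CPM of the other HFD libraries. On the first principal component of all genes, with 37% of the variance, it stood at 28.4, among the MCD libraries (15.6 to 39.4) and apart from the other HFD libraries (-12.7 to -0.416). Among MCD libraries, replicate 5 had the highest macrophage sum, 158 CPM, and the lowest mitosis sum, 85.7 CPM. Replicate 2 had the highest mitosis sum, 119 CPM, and the highest sums of Kupffer cell markers, 478 CPM, and S-phase genes, 387.5 CPM. The stellate cell and fibroblast sum was highest in replicate 4, at 883 CPM. What these orders mean was not tested. With HFD replicate 2 and MCD replicate 3, the lowest MCD library on that component, both left out, 27 members rose in MCD against BD (13.6% of all genes in that fit), 21 in MCD against HFD (7.24%, up from 2.22%) and 0 in HFD against BD (2.62%).

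**Figure D4:**
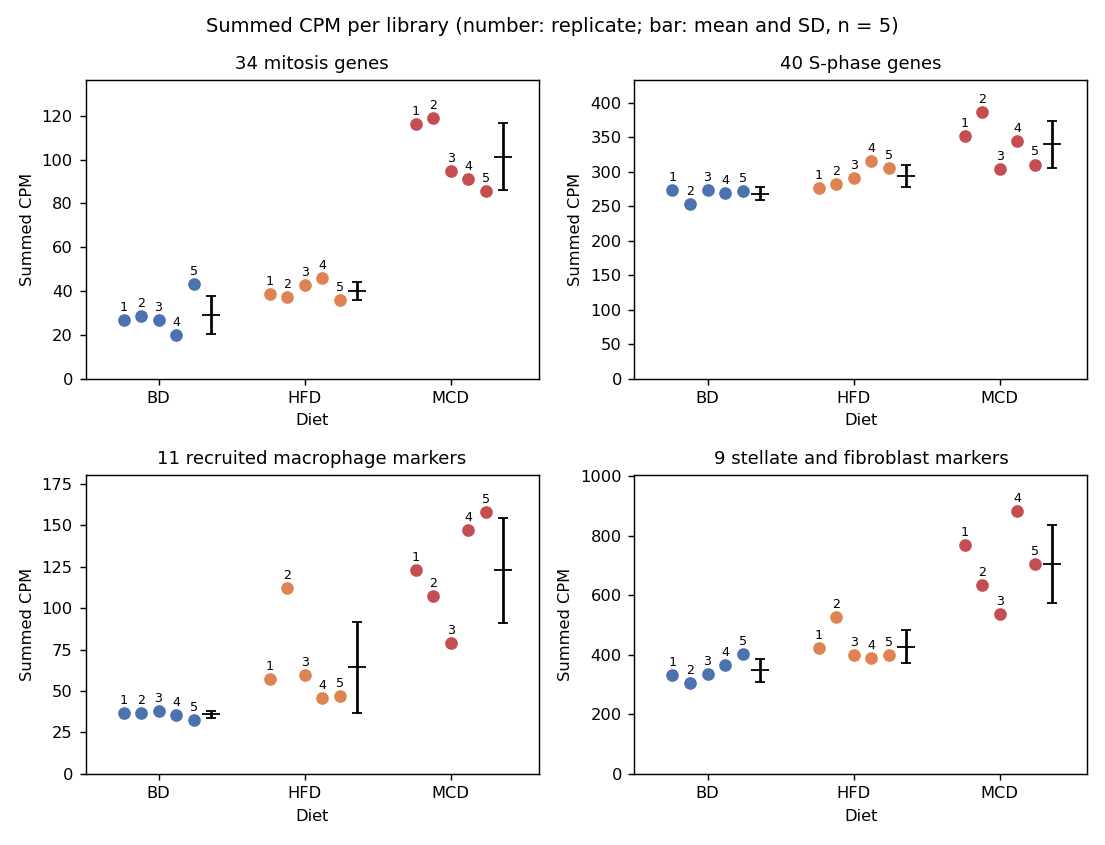
Summed CPM per library for the 34 mitosis genes, 40 S-phase genes, 11 recruited macrophage markers and 9 stellate cell and fibroblast markers; points are libraries numbered by replicate and black bars are mean and SD (n = 5). HFD replicate 2 stands at 111.9 CPM of macrophage markers, inside the MCD range, and at 37.4 CPM of mitosis genes, inside the HFD range.

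Markers of the remaining cell types also differed in part in MCD against BD, where 12.8% of all genes rose and 8.64% fell. Sinusoidal endothelium rose for 3 of 7 markers, led in level by Stab2 (0.44 ± 0.09, adjusted p = 0.00175), with sums of 307 to 391, 302 to 364 and 372 to 395 CPM in BD, HFD and MCD. Hepatocyte markers, of which none was at 0, fell for 3 of 10 and rose for 0 (median -0.30). Those that fell were Cps1 (-1.56 ± 0.21, adjusted p = 1.11e-04), the first enzyme of the urea cycle, Fgb (-0.62 ± 0.15, 0.00646), a fibrinogen chain, and Hnf4a (-0.37 ± 0.09, 0.00777), a hepatocyte transcription factor. Mean CPM of Cps1 went from 5706 ± 769.5 in BD to 1929 ± 479.6 in MCD, with 2522 ± 773 for HFD (SD, n = 5), and it also fell in HFD against BD (-1.18 ± 0.21, adjusted p = 0.00227). Alb, albumin, gave 0.01 ± 0.11 (adjusted p = 0.967). Their sums were 147164 to 165904, 129396 to 156266 and 131997 to 176940 CPM, so the tissue read as liver in every library. Cholangiocyte markers fell for 1 of 3, Sox9 (-0.85 ± 0.21, adjusted p = 0.00777), and rose for 0, with sums of 13.1 to 18.6, 7.41 to 13.1 and 8.01 to 17.0 CPM and Krt7 and Cftr at 0 in 1 library each. Of the neutrophil markers, Csf3r alone was tested and rose (1.05 ± 0.22, adjusted p = 0.00205), with sums of 1.44 to 2.84, 3.52 to 5.38 and 4.47 to 5.89 CPM and S100a8 at 0 in 1 library.

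Lymphocyte markers were low, and only 1 of 7 T and NK cell markers and 1 of 3 B cell markers had enough counts to be tested. T and NK cell markers summed to 3.30 to 6.88 CPM in BD, 3.88 to 6.47 in HFD and 4.05 to 8.09 in MCD, and 3 of 7, Cd3d, Cd8a and Nkg7, were at 0 in 1 or more libraries. Cd4, the only one tested, fell by 1.39 ± 0.33 (adjusted p = 0.00482). The 6 untested ones had higher means in MCD than in BD: Cd8a at 0.297 and 1.24 CPM, Cd3e at 0.324 and 0.883 CPM, Cd3d at 0.121 and 0.508 CPM, Nkg7 at 0.376 and 1.04 CPM, Cd3g at 0.640 and 0.798 CPM and Klrb1c at 0.321 and 0.344 CPM in BD and MCD. B cell markers summed to 0.852 to 2.27, 1.06 to 2.13 and 1.22 to 3.30 CPM, with Ms4a1, untested, at 0 in 2 libraries and at a mean of 0.195 CPM in BD and 0.623 CPM in MCD. Cd79b, the 1 tested, gave 0.42 ± 0.35 (adjusted p = 0.426). Erythroid precursors also divide, and 0 of 3 tested markers were called in MCD against BD. Over all genes tested, 12.8% rose and 8.64% fell there, so 0 of 3 does not set these markers apart. The sums of the erythroid markers, 139.7 to 155, 97.6 to 162 and 121 to 193 CPM, were nearly all Alas2 (-0.05 ± 0.14, adjusted p = 0.841), while Hemgn and Rhag were at 0 in all 15 libraries.

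Other genes of the same machinery were drawn up as 5 lists of 89 genes. Of 63 tested, 29 rose and 2 fell in MCD against BD, 8 rose and 1 fell in MCD against HFD, and 4 rose and 0 fell in HFD against BD. The filter limit applies here too, as some of the 63 had a mean over its level, 0.970 CPM, in MCD only. Dlgap5 had means of 0.104, 0.459 and 1.15 CPM in BD, HFD and MCD, and Sgol2 0.270, 0.517 and 1.30 CPM. No count without the filter is given for these lists. Over all genes tested, 12.8% rose and 8.64% fell in MCD against BD, 2.22% and 0.927% in MCD against HFD, and 3.65% and 3.27% in HFD against BD. The median log2 fold change of the 63 in MCD against BD was 0.63. Further motors, spindle and cytokinesis genes rose for 11 of 14 (median 1.77), such as Kif22 (1.83 ± 0.28, adjusted p = 1.62e-04), a chromosome-arm motor, Dlgap5 (2.77 ± 0.44, adjusted p = 2.32e-04), a spindle protein, and Incenp (0.87 ± 0.19, adjusted p = 0.00242), the scaffold of the passenger complex. Condensin, which compacts chromosomes, rose for 5 of 7 genes, among them Ncapg2 (1.73 ± 0.24, adjusted p = 8.54e-05), Ncapd2 (0.74 ± 0.17, adjusted p = 0.00326) and Smc4 (0.68 ± 0.17, adjusted p = 0.00678). Further kinetochore and checkpoint genes rose for 6 of 19, among them Mad2l1 (1.59 ± 0.22, adjusted p = 8.80e-05), the checkpoint protein MAD2, and Spc25 (1.38 ± 0.27, adjusted p = 0.00144).

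Kinases, phosphatases and cyclin partners of mitosis rose for 6 of 12. Cdc25b, a phosphatase that activates CDK1, rose by 1.74 ± 0.27 (adjusted p = 1.95e-04), and Wee1, a kinase that inhibits CDK1, by 2.76 ± 0.46 (adjusted p = 6.07e-04). Both also rose in HFD against BD, Cdc25b by 1.17 ± 0.29 (adjusted p = 0.0178) and Wee1 by 2.17 ± 0.47 (adjusted p = 0.0107). Arpp19, an inhibitor of the phosphatase that opposes CDK1, rose by 0.34 ± 0.09 (adjusted p = 0.00825). Cohesin genes and their regulators, which hold sister chromatids together also outside mitosis, rose for 1 of 11 and fell for 2. Of all genes tested, 12.8% rose and 8.64% fell. Sgol2, shugoshin 2, the protector of centromeric cohesin, rose by 1.90 ± 0.37 (adjusted p = 0.00118), and Wapal, the releasing factor WAPL, fell by 0.48 ± 0.10 (adjusted p = 0.00141).

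Subunits and regulators of the anaphase-promoting complex did not pass in any comparison: 0 of 16 were called in MCD against BD, MCD against HFD and HFD against BD. Over all genes tested, 2.22% rose and 0.927% fell in MCD against HFD, and 3.65% and 3.27% in HFD against BD. At those shares, 0 of 16 does not set these genes apart in either comparison. Anapc4 gave 0.43 ± 0.18 (adjusted p = 0.0891) and Anapc1 -0.16 ± 0.09 (adjusted p = 0.231) in MCD against BD. The list's median there was 0.01, and its summed level was 371 ± 9.39 CPM in BD, 367 ± 13.3 CPM in HFD and 374 ± 15.5 CPM in MCD (SD, n = 5). Genes of the DREAM and MuvB complexes and related cell cycle factors rose for 1 of 19 and fell for 2 in MCD against BD. In MCD against BD 12.8% of all genes tested rose and 8.64% fell. The pocket protein Rbl1 rose by 0.93 ± 0.20 (adjusted p = 0.00268), its relative Rbl2 fell by 0.35 ± 0.10 (adjusted p = 0.0189), and Tfdp2, a partner of E2F factors, fell by 0.55 ± 0.10 (adjusted p = 0.00104).

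Genes of earlier cell cycle steps were compared as 2 further lists. Of all genes tested, 12.8% rose and 8.64% fell in MCD against BD, 2.22% rose in MCD against HFD, and 3.65% rose in HFD against BD. Of 36 tested genes of DNA replication and S phase, 11 rose and 1 fell in MCD against BD (median log2 fold change 0.43), 4 rose in MCD against HFD, and 1 rose and 1 fell in HFD against BD. Mcm5, a subunit of the replicative helicase, rose by 1.66 ± 0.25 (adjusted p = 1.54e-04), and Rrm1, of ribonucleotide reductase, by 0.40 ± 0.13 (adjusted p = 0.0364). Tk1, thymidine kinase, went the other way and fell by 0.97 ± 0.14 (adjusted p = 8.54e-05), from 13.3 ± 1.71 CPM in BD to 7.96 ± 1.21 CPM in HFD and 6.81 ± 0.836 CPM in MCD (SD, n = 5). Of 13 G1 cyclins and CDK inhibitors, 4 rose in MCD against BD, 2 in MCD against HFD and 1 in HFD against BD. Ccnd1, cyclin D1, which drives G1 progression, stood at 19.8 ± 2.47 CPM in BD, 76.3 ± 8.91 CPM in HFD and 120.0 ± 17.5 CPM in MCD (SD, n = 5). It rose in all 3 comparisons, by 2.60 ± 0.12 in MCD against BD (adjusted p = 1.89e-10), 1.94 ± 0.12 in HFD against BD (adjusted p = 7.20e-09) and 0.66 ± 0.11 in MCD against HFD (adjusted p = 0.00666). Cdkn2c, an inhibitor of the kinases that cyclin D binds, rose by 1.003 ± 0.16 in MCD against BD (adjusted p = 2.29e-04) and by 0.91 ± 0.16 in MCD against HFD (adjusted p = 0.00666).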

How the data were processed

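The authors deposited raw read counts per gene symbol for each library: 23420 genes, and 5 final rows of unassigned reads. Their processing, per the submitters' processing notes, used Trimmomatic, TopHat2 2.0.13, HTSeq, DESeq2 and the build GRCm38/mm10. The annotation used and the strand setting were not given in the sources used here, and per the labels' protocols the kit keeps strand. The final rows stayed out: 12.7 to 17.0 per 100 uniquely placed reads lay outside genes and 0.567 to 0.841 were ambiguous. Non-unique alignments numbered 1.15 to 2.80 per gene count.

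Counts were fitted over all 15 libraries with edgeR 4.0.16 (R 4.3.3; TMM factors, filterByExpr with minimum count 10 and minimum total 15, robust quasi-likelihood fit, two-sided F test). Adjusted p-values (Benjamini-Hochberg) cover the 12193 genes tested, and those under 0.05 are calls. The SE is the size of the log2 fold change over the root of F. On simulated data with known changes, 47 of 50 genes changed 4-fold and 21 of 50 changed 1.5-fold were recovered in MCD against BD. The changed genes were drawn at random from all genes tested, so this recovery does not give that of the low mitosis genes. Replicate pairs differed beyond counting noise, and all counted as samples. That spread does not show that the libraries came from separate animals. Positions and exon lengths are from GENCODE M21, and promoter windows from RefSeq. DESeq2 1.42.0, limma-voom (limma 3.58.1), other scalings and filters, and left-out libraries were the alternatives.

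The members, roles, lists and markers were chosen with earlier results of these data known. Values per library are given for the 2 genes of each role with the highest mean CPM, for members called in HFD against BD (none) and for tested members not called in MCD against BD (Aurka). From each other list the called gene with the highest mean CPM and the 2 with the smallest p in MCD against BD are named, and from each marker list the gene with the highest mean CPM. Other genes named with a value, such as markers at 0, untested lymphocyte markers and the hepatocyte markers that fell, were named after their values were seen. The markers Ly6g and Ahsp were not found by symbol. A cholangiocyte marker and a B cell marker are not reported here and are left out of their lists.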

Additional observations from a re-analysis of the deposited data

Results flagged for a closer look

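In 8 of 105 groups checked (the 34 genes and their sum, in each diet), 1 library stood apart from the other 4 (a gap over 0.71 of the range). Chance alone gives about 1 in 20 groups of independent, normally distributed values. These groups hold low counts from the same libraries, so that rate need not apply and the 8 cannot be judged by it. Of the 8, 3 were high values of BD replicate 5: Top2a at 2.64 CPM (the others 0.710 to 1.13), Nuf2 at 0.754 CPM (0.142 to 0.309) and Ndc80 at 0.613 CPM (13 counts, the others 0). MCD replicate 2 was the lowest MCD library for Foxm1, at 1.35 CPM (2.20 to 2.46), and the highest for Ttk, at 1.45 CPM (0.615 to 0.825). The rest were on very few reads: Ccnb1 at 0.206 CPM in BD replicate 2 (2 counts), Ccnb1 at 0.539 CPM in HFD replicate 5 (4 counts) and Bub1 at 1.13 CPM in BD replicate 1 (4 counts). The cause was not tested.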

How the results depend on the processing

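In MCD against BD, 27 members rose, and 26 to 32 did under DESeq2, limma-voom, other scalings, no filter, an adjusted p under 0.01 and only the diets compared. The 0.01 threshold aside, 7.48% (DESeq2) to 18.9% (no TMM factors) of all genes rose in these fits. With 1 library left out the count was 27 to 28 (10% to 13.9% of all genes). A stricter filter left 15 members to test, of which 14 rose (12.7% of all genes). Thinning to the shallowest library left 9, of which 5 rose (5.52% of all genes). In MCD against HFD, 22 rose (2.22% of all genes), and 7 at an adjusted p under 0.01. The stricter filter gave 13 of 15 (2.09% of all genes) and thinning 0 of 9 (0.448%). With 1 library left out the count ran from 11 without HFD replicate 4 (0.456%) to 25 without HFD replicate 2 (6.8%). No member was called lower in any comparison or alternative run. In HFD against BD, 0 rose, and 0 to 3 with 1 library left out (3 without BD replicate 5, where 4.1% of all genes rose). With a covariate for non-unique alignments, of which BD replicate 5 had the most, 2 rose, Mki67 and Ccnb2 (4.67% of all genes). Thinning, the covariate and leaving out HFD replicate 2 with MCD replicate 3 were chosen after seeing the data.

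Values that changed sign were all in HFD against BD, none of them called: Plk1 (0.31) gave -0.0749 with limma-voom and -0.0470 to 0.607 with 1 library left out, Kif11 (0.04) -0.0548 to 0.380, Aurkb (-0.23) -0.387 to 0.102 and Nuf2 (-0.17) -0.384 to 0.563, with 0.0362 for Nuf2 under the covariate, and Ect2 (0.37) gave -0.0736 after thinning. Aurka was called in MCD against BD without TMM factors and with the covariate. Depth limits genes under 1 CPM in the shallow libraries. No paired analysis was possible because the replicate numbers only follow deposit order.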
